A study of Mus musculus with 2 samples.

Results

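Heart endothelial cells (ECs) of iSuRe-Cre pups were compared with heart ECs of control pups across all genes. The cells came from 1 10x Genomics library that mixed 6 groups, each stained with its own hashtag antibody: heart and liver cells from pups of 3 kinds (control, iSuRe-Cre and iSuRe-HadCre). Barcodes were kept with 2000 to 75000 UMIs (unique molecular identifiers, which count captured RNA molecules), more than 500 genes, and mitochondrial and haemoglobin shares below 5% each. A natural log of 1 plus 10000 times the Cdh5 share above 0.9 was also required, Cdh5 being the VE-cadherin gene that marks ECs. A barcode was given to a group when its hashtag had at least 25 UMIs and every other assigned hashtag was below its own minimum, which was 140 UMIs for iSuRe-Cre liver and 25 for the rest. Of 7704 barcodes with Cdh5 above the limit, among 14348 within the quality limits, 689 were members: 435 of iSuRe-Cre heart and 254 of control heart. The Cdh5 limit removed 22 and 11 hashtagged barcodes, with the nearest values outside it at 0.842 and 0.758 and inside it at 0.904 and 0.9503. Near the hashtag minimum, 48 iSuRe-Cre and 17 control members had 25 to 29 UMIs of their hashtag, and 40 barcodes for each hashtag had 20 to 24 and were left without a group.

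The pups were of the C57BL/6 strain and 6 to 7 days old, and had received 40 mg/kg of 4-hydroxytamoxifen on postnatal day 3, with dissection 3 days later. The iSuRe-Cre group carried Cdh5-CreERT2, a tamoxifen-activated Cre driven by the Cdh5 promoter and so active in ECs, and iSuRe-Cre, a transgene that after recombination expresses membrane Tomato together with a permanently active Cre. The labels name no floxed Notch1 allele, and that the iSuRe groups carried one was taken from the study's text. The alleles of the control group and the number of pups per group are not given in the sources used here. Sorting was on CD31 and membrane Tomato, although the design text also mentions cells without Tomato signal. Each group was therefore 1 hashtagged sample, and no spread between animals could be measured. Intervals below are exact 95% intervals of UMI counts or, for shares of cells, of numbers of cells. They cover counting error only, treat UMIs or cells as independent draws, and come with no test.

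Notch receptors on ECs are cleaved after binding a ligand on a neighbouring cell, and the released fragment joins the DNA-binding factor RBPJ to switch on genes such as Hes1 and Hey1. In the vasculature the pathway restrains sprouting and cell division and favours arterial fate. Interferons act by a separate route, in which activated transcription factors bind interferon-response elements near antiviral, chemokine and antigen-presentation genes.

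The iSuRe-Cre heart cells held 8303637 UMIs, with a median of 16379 per cell (2842 to 73897) and 4368 genes. The control heart cells held 3030031 UMIs, with a median of 9100 per cell (2084 to 50428) and 3221 genes. Depth thus differed between the groups, and shares of cells are also given after each cell was thinned to 2000 UMIs. The median mitochondrial share was 1.56% and 1.88%. Levels are CPM, the UMIs of a gene in a group divided by all UMIs of the group and scaled to a common total, and ratios are iSuRe-Cre to control CPM. Of the fixed pan-endothelial markers all 10 of 10 were present, with a summed level of 4604 CPM in iSuRe-Cre and 5159 CPM in control. They include Cdh5, at 975.1 and 1310 CPM, whose presence the selection had fixed. Pecam1, which encodes CD31, was detected in 434 of 435 and 252 of 254 cells. The heart capillary markers summed to 16600 and 23140 CPM, with Fabp4 the most abundant of them.

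Several features differed between the groups in ways that the labels do not explain. WPRE, the RNA element by which the study chose Tomato-expressing cells, had 527 UMIs in iSuRe-Cre and 1704 in control. That is 63.5 CPM (58.2 to 69.1) against 562.4 CPM (536.0 to 589.7), a ratio of 0.113 (0.102 to 0.124). Tomato itself was at 25.5 against 97.7 CPM, a ratio of 0.261 (0.218 to 0.313). In iSuRe-HadCre heart WPRE was at 1055 CPM and Tomato at 269.4 CPM. The study reports a brighter reporter from the iSuRe-HadCre allele than from iSuRe-Cre. Which reporter, if any, the control carried is not given. In barcodes of 10 to 100 UMIs, which hold free RNA, WPRE was at 160.4 CPM and Tomato at 30.3 CPM, both above iSuRe-Cre heart. Free RNA made up an estimated 1.58% of the UMIs of iSuRe-Cre and 1.79% of control heart. Its levels are thus not those it would bring to cells. With free RNA subtracted the WPRE ratio was 0.109. A UMI of WPRE was found in 46.7% of iSuRe-Cre heart cells (10.8% after thinning). It was found in 47.9% (19.3%) of 169 hepatocyte-rich barcodes with a median of 7988 UMIs. In control heart these shares were 90.9% and 62.6%. The study's WPRE criterion, a log-normalized value above 0.5, was met by 145 of 435 iSuRe-Cre cells (33.3%) and by 228 of 254 control cells (89.8%). The sequence of Cre was at 30.7 and 29.04 CPM (ratio 1.06, 0.827 to 1.36). That of ERT2 was at 39.9 and 45.9 CPM (ratio 0.869, 0.711 to 1.07). Each was at 7.59 CPM in free RNA. Sv40-pA was at 147.6 and 72.3 CPM (ratio 2.04), with 142.0 CPM in free RNA. Bgh-pA and FlpE had ratios of 0.306 and 0.295.

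RNA of Y-linked genes differed as well, while the labels give no sex of the pups. A UMI of a Y-linked gene (Ddx3y, Eif2s3y, Kdm5d or Uty) was present in 385 of 435 iSuRe-Cre cells (88.5%, 85.1 to 91.3) and in 75 of 254 control cells (29.5%, 24.0 to 35.5). After thinning the shares were 30.3% and 12.5%. Conversely, Gm26992 on the X chromosome was at 5.42 CPM in iSuRe-Cre (45 UMIs) and 61.7 CPM in control (187 UMIs), a ratio of 0.0878 (0.0619 to 0.122). Its annotated span, chrX:103422010-103481705 of GRCm38, overlaps that of Tsix and, on the other strand, that of Xist, neither of which was analysed here, so reads of the 3 genes may not be separable. Values in the cells with a Y-linked UMI are given below beside Notch1, Cdkn1a, Kdr and the counts of Notch target, arterial, interferon-stimulated and G2/M genes. Whether a Y-linked UMI is found depends on depth, so keeping such cells also selects deeper ones. A shift in that setting cannot be told apart from one of depth, and the part of sex in the differences was not tested.

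Of 7164 genes with at least 200 UMIs over both groups, 232 (3.24%) had a CPM ratio of at least 2 and 112 (1.56%) a ratio of at most 0.5. These are called higher and lower here. The median log2 ratio was -0.05, and 90% of genes lay between -0.67 and 0.71. The whole interval lay above 2 for 142 genes and below 0.5 for 52. In 23 of the higher and 5 of the lower genes, over 25% of the UMIs of a group came from 1 cell. With only the cells that met the WPRE criterion in both groups, 91 of 4801 genes tested were higher and 70 lower. With only the cells that had a Y-linked UMI, 205 of 6327 were higher and 99 lower. Of these, 153 and 58 were also called in the comparison of all cells.

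**Figure D1:**
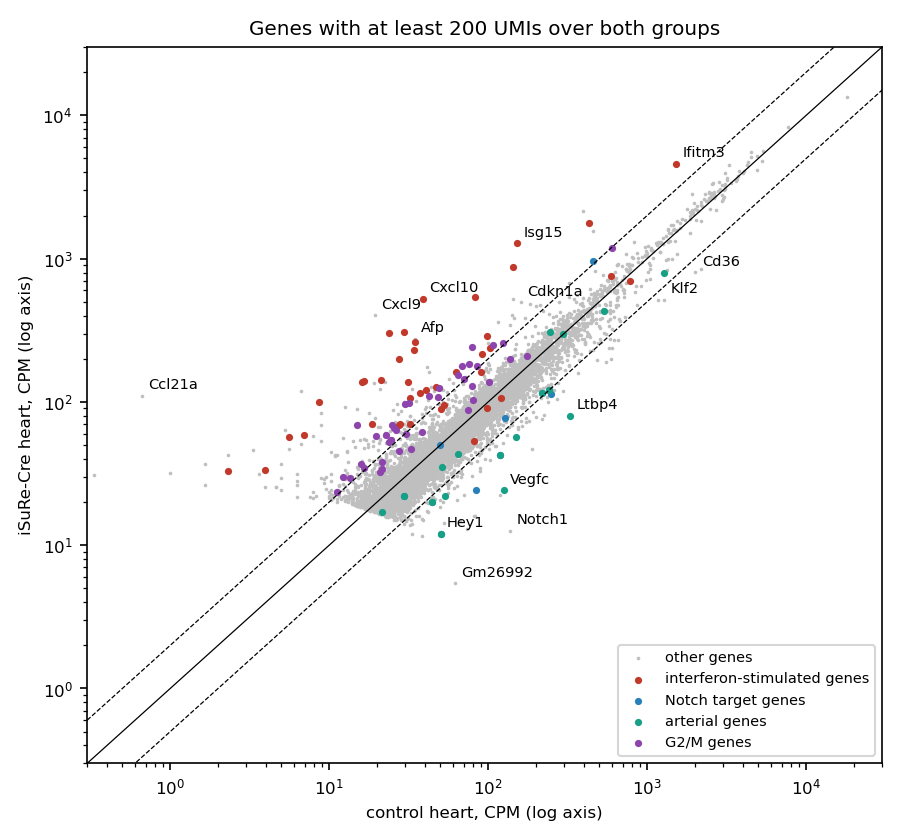
Level of each of the 7164 genes in control heart (x axis, CPM, log scale) and iSuRe-Cre heart (y axis, CPM, log scale), with the line of equality solid and the 2-fold limits dashed. Interferon-stimulated genes (red) lie mostly above the upper limit, Notch1, Hey1 and Vegfc lie below the lower one, and the values of Ccl21a and Afp come from few cells.

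Notch1, the receptor gene the study set out to delete, had the lowest ratio of the 7164 genes when 10 CPM was added to both levels. It had 105 UMIs in iSuRe-Cre heart and 417 in control heart, or 12.65 CPM (10.3 to 15.3) against 137.6 CPM (124.7 to 151.5). The ratio was 0.0919 (0.0735 to 0.114), and 0.113 in cells with a Y-linked UMI. A Notch1 UMI was found in 59 of 435 iSuRe-Cre cells (13.6%) and 179 of 254 control cells (70.5%), although the iSuRe-Cre cells were the deeper ones. After thinning these shares were 1.82% and 26.0%, against 0.844% (8.28% without thinning) in the hepatocyte-rich barcodes. Those barcodes were not free of EC RNA, since a Cdh5 UMI was found in 20.7% of them (2.37% after thinning). Notch1 lies at chr2:26457903-26516663 of GRCm38 on the minus strand. UMIs are counted per gene, and which part of the transcript the remaining 105 came from is not known here.

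The residual Notch1 UMIs were not spread evenly over the iSuRe-Cre cells. Clustering all 7704 barcodes without Notch1 and the transgene sequences gave 30 clusters, of which 5 held at least 25 iSuRe-Cre heart cells. In the heart capillary-like cluster, Notch1 was at 2.55 CPM (6 UMIs in 152 cells) in iSuRe-Cre and 129.5 CPM (216 UMIs in 151 cells) in control, a ratio of 0.0197 (0.00715 to 0.0436). In the cluster with Cxcl12, Sema3g and Gja4 among its leading genes, it was at 5.04 CPM (2 UMIs in 28 cells) against 301.8 CPM (104 UMIs in 49 cells). In the cluster led by Tmem108 and Npr3, it reached 31.0 CPM (20.3 to 45.5) in 53 iSuRe-Cre cells, the highest of the 5. Control heart had 7 cells in that cluster, too few for a control level. The 66 iSuRe-Cre cells outside the 5 clusters held 48 of the 105 UMIs, or 25.9 CPM (19.1 to 34.3), an interval that overlapped that of the cluster led by Tmem108 and Npr3. Among them were 22 cells of a cluster with Col3a1 and Col1a2 among its leading genes, 13 lymphatic endothelial-like and 9 mural-like cells. Their 48 UMIs thus do not measure Notch1 left in blood ECs alone. The interval of the cluster led by Tmem108 and Npr3 lay wholly above that of the capillary-like cluster. It also lay above that of the cluster led by histone and cell cycle genes, which was at 7.34 CPM (4.19 to 11.9). Control levels of Notch1 differed between clusters (129.5 and 301.8 CPM), so the iSuRe-Cre levels do not show where a larger part of it remained.

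The other 3 receptors did not share 1 direction. Notch4, a receptor found mainly on ECs, had 31 UMIs (3.73 CPM) in iSuRe-Cre and 145 (47.9 CPM) in control, a ratio of 0.0780 (0.0511 to 0.116), and its 176 UMIs left it below the 200 needed for a call. Within the capillary-like cluster its ratio was 0.0551 (0.0216 to 0.118). Notch2 was at 12.2 and 14.9 CPM, a ratio of 0.819 whose interval of 0.571 to 1.19 held 1. Notch3, a receptor of mural cells, had 64 and 6 UMIs, a ratio of 3.89 (1.69 to 11), and 9 cells of iSuRe-Cre and 0 of control lay in the mural-like cluster. The mural markers, 8 of 8 detected in both groups, summed to 172.9 and 143.2 CPM. Among the 40 tested genes nearest to Notch1 on chromosome 2, 20 on each side, 0 were lower and 1, the tubulin gene Tubb4b, was higher (2.31), with a median log2 ratio of -0.06.

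Of the Notch ligands and modifiers, 2 of 18 tested genes were lower and 0 higher, with a median log2 ratio of -0.25 beside -0.05 for all genes. Both were ligands. Jag1 was at 22.2 and 53.5 CPM (ratio 0.414, 0.334 to 0.515). Dll4, the main ligand of sprouting and arterial ECs, was at 20.1 and 44.6 CPM (0.451, 0.358 to 0.571). The ligand Jag2 had a ratio of 0.688 and Mib1, a ligase that ligands need for activity, of 0.691. Rbpj was at 63.8 and 74.6 CPM, with an interval of 0.731 to 1.00. The other modifiers, namely proteases, mastermind coactivators, Numb, Mfng and the Notch-interacting protein gene Dlk1, had ratios between 0.775 (Adam17) and 1.10 (Psenen).

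Among Notch target genes, 6 of 11 tested were lower and 1 higher, and the median log2 ratio was -1.005. Hey1, a transcriptional repressor of arterial ECs, was at 12.04 CPM (9.80 to 14.7) in iSuRe-Cre and 50.2 CPM (42.5 to 58.8) in control, a ratio of 0.240 (0.185 to 0.311). Hes1, a repressor of the same family, was at 113.7 and 248.5 CPM (0.458, 0.415 to 0.504). Unc5b, a netrin receptor, had a ratio of 0.287 (0.237 to 0.347), and Gja4, which encodes connexin 37, of 0.358 (0.308 to 0.416). Efnb2, the arterial ephrin, lay just inside the limit at 0.498 (0.452 to 0.549), and was past it in only 6 of 18 other settings. Nrarp, a feedback inhibitor of Notch, was at 49.9 and 49.8 CPM. Ccnd1, cyclin D1, was the member that went the other way, at 962.1 and 457.4 CPM (2.10, 1.99 to 2.23).

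Within clusters Hey1 and Hes1 gave unlike pictures, and the differences between clusters were not tested. Hey1 was lower in both, at 0.202 (0.0894 to 0.418) in the capillary-like cluster and 0.367 (0.231 to 0.570) in the cluster with Cxcl12, Sema3g and Gja4 among its leading genes. Hes1 had a ratio of 0.354 (0.305 to 0.411) in the capillary-like cluster and was at 171.5 and 171.2 CPM in the other. Gja4 was at 0.921 (0.373 to 2.35) and 0.360 (0.280 to 0.460) in these clusters, and Dll4 at 0.785 (0.538 to 1.15) and 0.0808 (0.0211 to 0.222). Ccnd1 was higher in both clusters, at 2.34 and 3.82. With cells meeting the WPRE criterion in both groups, 1 of 8 Notch targets tested was lower, and with cells that had a Y-linked UMI, 2 of 9. Their median log2 ratio was then -0.75 and -0.81. Over all genes tested, 70 of 4801 and 99 of 6327 were lower in these settings.

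Arterial genes followed the same direction. Of 17 tested, 8 were lower and 0 higher, with a median log2 ratio of -0.93, and 5 of the 8 were Notch targets or ligands already given. The count was 3 of 13 (median -0.55) with cells meeting the WPRE criterion in both groups and 5 of 14 (median -0.785) with cells that had a Y-linked UMI. Within clusters it was 2 of 5 in the capillary-like cluster and 5 of 8 in the cluster with Cxcl12, Sema3g and Gja4 among its leading genes, which held 28 of 435 iSuRe-Cre and 49 of 254 control cells and was formed partly on arterial genes. Over all genes with at least 200 UMIs in the cluster, 2.15% of 3539 were higher and 2.83% lower in the capillary-like cluster, and 3.56% of 618 were higher and 5.66% lower in the other. Vegfc, a growth factor for lymphatic and venous vessels, was at 24.2 and 125.1 CPM (0.194, 0.162 to 0.230). Ltbp4, which stores TGF-beta in the matrix, was at 80.1 and 328.7 CPM (0.244, 0.220 to 0.269), and in the capillary-like cluster its ratio was 0.126. Stmn2, a tubulin-binding protein gene, had a ratio of 0.378. The matrix genes Eln and Mgp were at 1.00 and 1.26. None of 9 venous genes tested was higher or lower, and their median log2 ratio was 0.07.

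The most numerous differences were in interferon-stimulated genes. Of 40 tested, 32 were higher in iSuRe-Cre heart and 0 lower, with a median log2 ratio of 1.82 beside -0.05 for all genes. Their summed level was 15480 CPM against 5120 CPM, a ratio of 3.02 (2.97 to 3.08). Among them were antiviral effectors, chemokines, transcription factors and GTPases. The 8 that were not called were Irf1, Stat2, Ifi27, Ifitm2, Ddx58, Parp14, Trim25 and Ly6e, with ratios between 0.660 and 1.82.

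Short stretches of the promoters of called genes are shown here because these genes were higher together and many share letters of the interferon-response element. The search was for GAAA, any 2 bases and GAAA again, on both strands (TTTC, any 2 bases and TTTC on the other), in RefSeq windows of GRCm38.p6 from 250 bases before to 50 bases after each start. Of the 32 called genes 25 had a window, and 16 of these (64.0%) held the letters, as did 19 of the 30 tested members with a window (63.3%), called or not. Over the 27025 genes with a window the share was 3.99%, and over all 32851 windows 3.44%. The search was chosen after the expression values had been seen, and a match is a description of letters, not of a bound site. In the stretches below, 30 bases each and read 5′ to 3′ on the strand of the gene, capitals mark the matched letters.
Isg15, chr4:156200871-156200900, minus strand, 82 to 53 bases before the start: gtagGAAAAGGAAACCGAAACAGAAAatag
Ifit1, chr19:34640785-34640814, plus strand, 104 to 75 bases before the start: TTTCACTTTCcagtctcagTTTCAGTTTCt
Ifit3, chr19:34583363-34583392, plus strand, 166 to 137 bases before the start: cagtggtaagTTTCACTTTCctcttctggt
Bst2, chr8:71537580-71537609, minus strand, 137 to 108 bases before the start: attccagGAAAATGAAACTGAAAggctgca
Rsad2, chr12:26456553-26456582, minus strand, 130 to 101 bases before the start: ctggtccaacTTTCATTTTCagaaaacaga
Cxcl10, chr5:92349083-92349112, minus strand, 223 to 194 bases before the start: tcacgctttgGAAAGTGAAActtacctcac
Isg15 held 3 overlapping copies, Ifit1 and Bst2 held 2 each, and the other 3 stretches show 1. Ifit3b, a near-identical copy of Ifit3 at chr19:34607759-34607788, had the same 30 bases. The RBPJ letters GTGGGAA, searched on both strands, were found in 0 of 4 lower Notch targets with a window, of 6 called, and in 7.25% of all genes. Windows of Hes1 and Hey1 were not analysed here.

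Chemokines were among the higher genes. Cxcl9, which draws T cells through CXCR3, had 3358 UMIs in iSuRe-Cre and 59 in control, or 404.4 CPM (390.8 to 418.3) against 19.5 CPM (14.8 to 25.1). The ratio was 20.8 (16.1 to 27.3), and in control 28 of the 59 UMIs came from 1 cell. A Cxcl9 UMI was found in 154 of 435 iSuRe-Cre cells (18.6% after thinning) and 12 of 254 control cells (1.92%), with 0.628% in the hepatocyte-rich barcodes. Cxcl10, a ligand of the same receptor, was at 526.6 and 38.9 CPM (13.5, 11.3 to 16.4). Of its 118 control UMIs 69 came from 1 cell, and without the top cell of each group the ratio was 31.05. It was found in 26.4% of the thinned hepatocyte-rich barcodes and 20.2% of the thinned iSuRe-Cre cells, so its share of cells is not read further. Ccl2, a monocyte chemokine, had 391 and 17 UMIs (8.39, 5.17 to 14.6). Among leukocyte adhesion and chemokine genes 5 of 13 tested were higher and 0 lower. Of the 5, Ccl5 (2.54) had 53.3% of its iSuRe-Cre UMIs in 1 cell and was at 0.126 with the WPRE criterion in both groups and 0.444 in the capillary-like cluster.

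Other members with known antiviral roles follow. Isg15, a ubiquitin-like modifier, was at 1280 CPM (1256 to 1305) and 151.8 CPM (138.3 to 166.3), a ratio of 8.43 (7.68 to 9.28). It was found in 394 of 435 iSuRe-Cre cells (66.0% after thinning) and 110 of 254 control cells (18.8%), with 12.7% in the hepatocyte-rich barcodes. Ifit2 and Ifit3, which bind viral RNA, had ratios of 10.4 and 12.8, and Ifit1 of 7.23; reads of Ifit3 and Ifit3b (11.7) may be split between the copies. Rsad2, viperin, was at 872.3 and 142.9 CPM (6.10). Bst2, tetherin, was at 1785 and 430.4 CPM (4.15). Isg20, an RNA exonuclease, had 992 and 20 UMIs (18.1, 11.7 to 29.8). Irf7, a factor that amplifies interferon production, was at 260.5 and 34.7 CPM (7.52), and Zbp1, a sensor of Z-form nucleic acid, had 275 and 7 UMIs (14.3). The GTPase Iigp1 had a ratio of 6.55. Ifitm3, the member with the most UMIs, was at 4607 and 1523 CPM (3.02).

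Genes of antigen presentation went with them. Of 19 tested in the list of MHC class I presentation and Cd274, 10 were higher and 0 lower, with a median log2 ratio of 1.27. B2m, the light chain of MHC class I, was at 1569 and 458.7 CPM (3.42, 3.24 to 3.62). The heavy chain H2-K1 was at 523.7 and 144.2 CPM (3.63), and the related H2-Q7 at 56.4 and 12.2 CPM (4.62), although reads of H2 genes may be shared among copies. The immunoproteasome genes Psmb8, Psmb9 and Psmb10 had ratios of 3.13, 3.70 and 2.41. The peptide transporter Tap1 was at 3.34, and Cd274, which encodes PD-L1, at 3.50. Of 3 interferon genes looked up, Ifnb1 had 8 UMIs in iSuRe-Cre and 0 in control, where 3 UMIs would be 0.9901 CPM, and Ifng and Ifna4 had 0 in both.

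Cell by cell, interferon-stimulated genes took a median of 1.21% of the UMIs of an iSuRe-Cre cell (25th to 75th percentile 0.699 to 2.15%) and 0.473% of a control cell (0.363 to 0.607%). The distributions overlapped, and the highest cell was at 7.67% in iSuRe-Cre and 7.76% in control. After thinning, 223 of 435 iSuRe-Cre cells (51.3%, 46.5 to 56.1) lay above the 95th percentile of control cells, 1.17%. So a difference was seen in much of the group, not in a few cells. In the capillary-like cluster 22 of 32 genes of the list were higher and 1 lower, with Isg15 at 1103 and 140.8 CPM (7.83). In the cluster with Cxcl12, Sema3g and Gja4 among its leading genes, Isg15 was at 1145 and 238.0 CPM (4.81). Without the clusters led by interferon or cell cycle genes 23 of 36 were higher, with cells meeting the WPRE criterion in both groups 27 of 35, and with cells that had a Y-linked UMI 35 of 40. Over all genes tested, 156 of 6152, 91 of 4801 and 205 of 6327 were higher in these settings. The interferon-led cluster had been formed partly on interferon-stimulated genes.

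**Figure D2:**
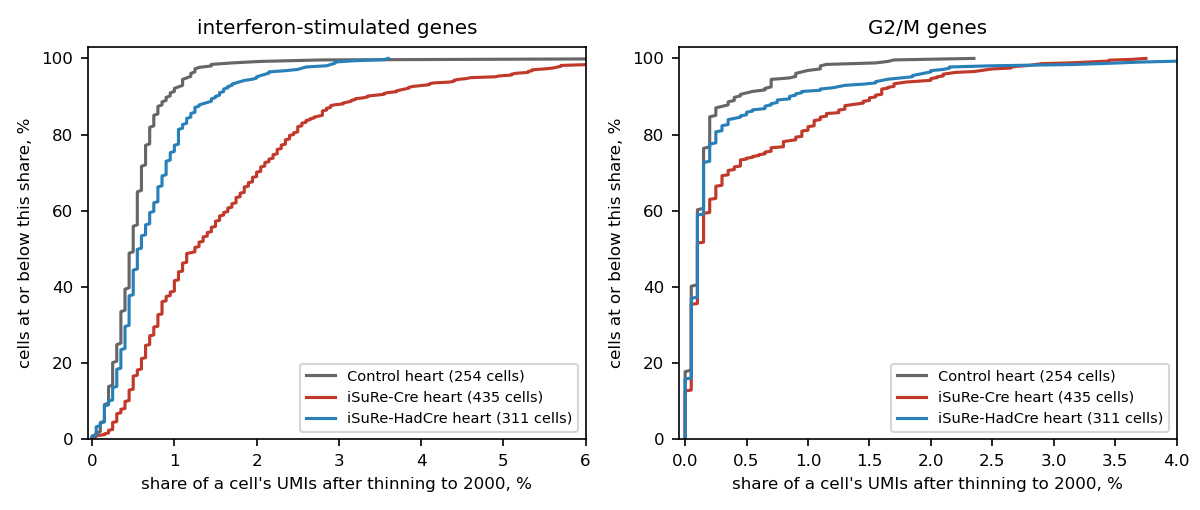
Share of a cell's UMIs, after thinning to 2000, in interferon-stimulated genes (left) and G2/M genes (right) on the x axis, against the percent of cells at or below that share, for control (254 cells), iSuRe-Cre (435) and iSuRe-HadCre (311) heart; the x axes end at 6% and 4%. In the left panel the iSuRe-Cre curve runs to the right of control over nearly its whole length; in the right panel it departs only in the upper cells, with 21.6% of cells above 0.867%.

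Genes of cell division were also higher as a group, but this rested on part of the cells. Of 41 G2/M genes tested, 27 were higher and 0 lower, with a median log2 ratio of 1.14 and a summed level of 5290 against 2633 CPM. Cenpf and Cenpe, kinetochore genes, had ratios of 3.04 and 3.24, and Ccnb2, cyclin B2, of 3.12. Ccnb2 was past 2-fold in 16 of 18 other settings, and lowest at 1.60 with cells meeting the WPRE criterion in both groups. Hmgb2, the member with the most UMIs, was at 1186 and 603.6 CPM (1.96). The median thinned share was 0.100% in both groups, while 94 iSuRe-Cre cells (21.6%, 17.8 to 25.8) and 13 control cells (5.12%) lay above the 95th percentile of control. Of 29 S phase genes 0 were higher or lower, with a median log2 ratio of 0.25.

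The count of G2/M genes was not stable. It was 4 of 43 when groups were called with HTODemux, a statistical hashtag caller. It was 0 of 21 with cells meeting the WPRE criterion in both groups and 4 of 41 with cells that had a Y-linked UMI. Over all genes tested, 177 of 7906, 91 of 4801 and 205 of 6327 were higher in these settings. In other settings the G2/M count was 34 of 41 (each cell weighing the same), 29 of 39 (below 6000 genes) and 17 of 24 (barcodes of 6000 to 20000 UMIs). There 320 of 7164, 220 of 6042 and 163 of 4173 of all genes tested were higher. Within the capillary-like cluster the G2/M count was 0 of 5, with a median log2 ratio of -0.24. That value does not bear on stability. The clustering had put 99 iSuRe-Cre and 12 control cells in a separate cluster led by histone and cell cycle genes.

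Cdkn1a, which encodes the cell cycle inhibitor p21, had 4144 UMIs in iSuRe-Cre and 489 in control, or 499.1 CPM (484.0 to 514.5) against 161.4 CPM (147.4 to 176.3). The ratio was 3.09 (2.81 to 3.403), and 3.55 in cells with a Y-linked UMI. A UMI was found in 340 of 435 cells (47.0% after thinning) and 102 of 254 (18.0%), with 11.1% in the hepatocyte-rich barcodes. Among capillary-like cells it was at 775.7 and 194.8 CPM (3.98, 3.54 to 4.49). In iSuRe-Cre cells of the cluster led by Tmem108 and Npr3 it was at 79.9 CPM (62.0 to 101.5). It was at 767.5 CPM in those of the interferon-led cluster and 448.1 CPM in those of the cluster led by histone and cell cycle genes. In the cluster with Cxcl12, Sema3g and Gja4 among its leading genes it was at 267.3 and 55.1 CPM (4.85, 2.96 to 8.37). A relation of Cdkn1a to residual Notch1 was not tested. Of the other CDK inhibitors, Cdkn3 (4.34) and Cdkn2c (2.00) were higher, so that 3 of 6 tested were called. Among capillary-like cells these 2 genes were at 0.911 (0.302 to 2.88) and 0.669 (0.324 to 1.38). These values rest on 9 and 7 and on 17 and 18 UMIs, too few for a direction. Cells rich in cell cycle RNA were also in a separate cluster. Cdkn1c, p57, was at 253.3 and 405.3 CPM (0.625), and in the capillary-like cluster at 0.246 (0.199 to 0.302).

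Other p53 target genes were divided. Of 26 tested 5 were higher and 3 lower, with a median log2 ratio of 0.13. Cdkn1a aside, the higher ones were Gdf15, a stress cytokine (2.52), the death receptor gene Eda2r (2.30), Dcxr, a sugar reductase gene (2.24), and Ckap2, a spindle gene (4.66). The lower ones were Pltp, a phospholipid transfer protein gene (0.191), Tnfrsf10b (0.454) and Ddit4 (0.489). Bax, a cell death effector, was at 496.0 and 279.9 CPM (1.77), and Mdm2, the ligase that degrades p53, at 81.4 and 43.2 CPM (1.88). Within that capillary-like cluster 8 of 15 were higher and 1 lower, with a median log2 ratio of 1.24. There Gdf15 was at 3.43 and Bax at 2.44.

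**Figure D3:**
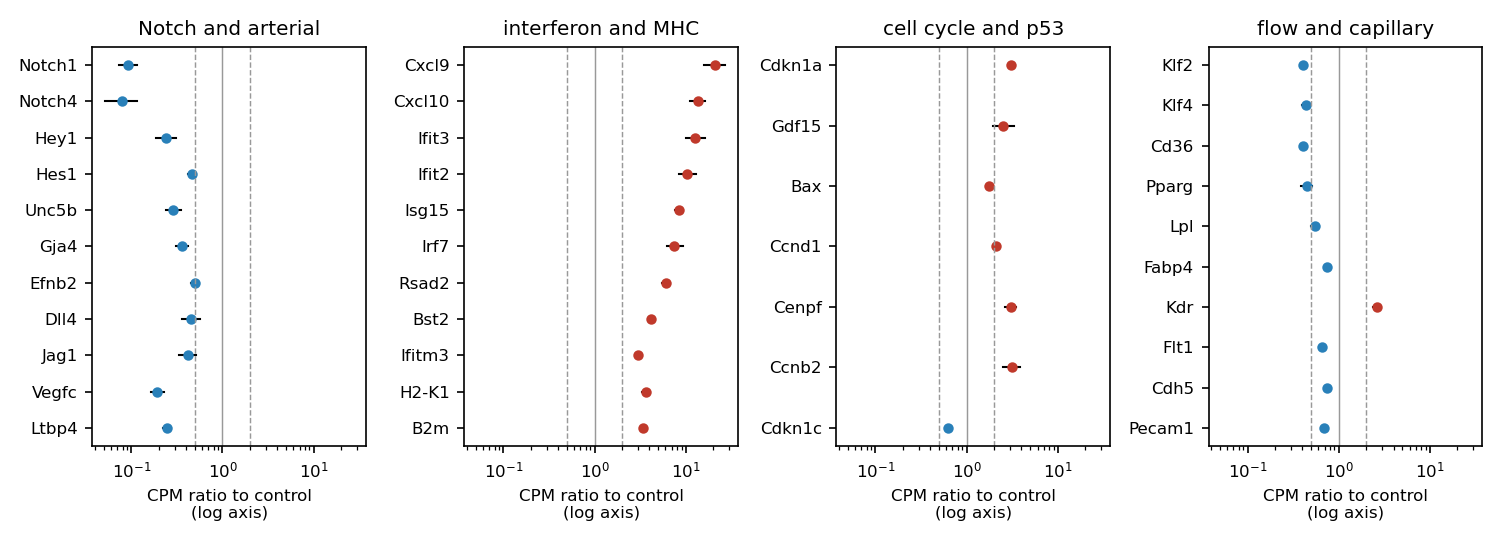
CPM ratio of iSuRe-Cre to control heart (x axis, log scale) for named genes in 4 groups, with exact 95% intervals that cover counting error; dashed lines mark ratios of 0.5 and 2, red points lie above 1 and blue points below. Notch1 and Notch4 lie lowest (0.0919 and 0.0780), the interferon and MHC genes shown all lie above 2, and Kdr lies above 2 while Klf2, Klf4, Cd36 and Pparg lie below 0.5.

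Among 8 VEGF receptor and ligand genes tested, 1 was higher and 1 lower. Kdr, VEGF receptor 2, was the higher one, at 480.4 CPM (465.6 to 495.5) and 184.2 CPM (169.2 to 200.1), a ratio of 2.61 (2.39 to 2.85), and 2.58 in cells with a Y-linked UMI, but 1.93 when groups were called with HTODemux. A Kdr UMI was found in 405 and 140 cells (57.5% and 24.0% after thinning), with 10.1% in the hepatocyte-rich barcodes. Flt1, VEGF receptor 1, was at 0.651, Flt4 at 1.73, and Vegfc was the lower one. Among capillary-like cells Kdr was at 2.94 (2.61 to 3.31). Of 17 tip-cell genes Adm, adrenomedullin, was higher at 100.2 and 29.4 CPM (3.41), and Unc5b and Dll4 were lower.

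Klf2 and Klf4, transcription factors induced by laminar flow, were both lower. Klf2 was at 517.2 and 1277 CPM (0.405, 0.388 to 0.423) and Klf4 at 159.1 and 367.3 CPM (0.433, 0.3996 to 0.470). Thbd, thrombomodulin, was at 42.3 and 88.1 CPM (0.480). These were the 3 lower genes of 13 flow-responsive genes tested, with 2 higher (Kdr and Ccl2). In the capillary-like cluster the ratios of Klf2 and Klf4 were 0.291 and 0.222, but in the cluster with Cxcl12, Sema3g and Gja4 among its leading genes they were 0.744 and 1.41. Nos3, which makes nitric oxide, was at 84.7 and 88.1 CPM.

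Of 15 fatty acid uptake genes 3 were lower and 0 higher, with a median log2 ratio of -0.42. Cd36, the fatty acid transporter, was at 809.8 and 2013 CPM (0.402, 0.389 to 0.416). Pparg, a nuclear receptor of lipid metabolism, was at 0.447, and Aqp7, a glycerol channel, at 15.9 and 81.5 CPM (0.195, 0.157 to 0.242). Lpl was at 0.552. Fabp4 was at 13500 and 18100 CPM (0.746), and Gpihbp1, which anchors lipoprotein lipase on capillaries, at 1150 and 1074 CPM (1.07).

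Lists of more general endothelial and cellular genes had few calls. Over all 7164 genes tested 3.24% were higher and 1.56% lower, and a low count in a short list thus says little about its members. None of 24 junction and surface genes was called, with Cdh5, used in the selection, at 975.1 and 1310 CPM and Pecam1 at 0.694 (0.661 to 0.728). None was called of 22 BMP and TGF-beta genes, 19 ETS and SOX factors, 26 immediate early and stress genes, 14 glycolysis genes, 87 nuclear respiratory chain genes or 13 mitochondrial genes. Their median log2 ratios were -0.28, -0.37, -0.31, 0.42, 0.18 and -0.26. Of 24 Myc family and growth genes 2 were higher, Ccnd1 and Odc1, the polyamine enzyme (2.89). Of 14 FOXO and PI3K genes 1 was lower, the growth factor gene Igf1 (0.494), which was past 2-fold in 8 of 18 other settings. Of 80 cytosolic ribosomal protein genes 1 was lower, Rps3a1.

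Among the 12 lowest genes not yet named were Abcb1a, a drug efflux pump (15.9 and 82.2 CPM, ratio 0.193), and Slc26a10 (0.248). Ablim1, an actin-binding protein gene, was at 199.9 and 594.1 CPM (0.336), and Ptprb, the endothelial phosphatase VE-PTP, at 190.6 and 547.2 CPM (0.348).

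Some calls came from few barcodes. Afp, a fetal liver protein gene, was at 277.0 and 34.7 CPM, but 91.6% of its iSuRe-Cre UMIs were in 1 cell. All 9 tested of 10 hepatocyte markers were higher, with 8084 and 488 UMIs in all (973.5 and 161.1 CPM), of which 6995 were in 1 iSuRe-Cre barcode. Without the 3 barcodes of which over 1% of UMIs were hepatocyte markers, Afp had a ratio of 0.577, and 219 genes were higher and 108 lower. Ccl21a, a chemokine of lymphatic ECs, had 918 UMIs in 5 iSuRe-Cre cells and 2 UMIs in control. Rgs5, a pericyte gene, had 692 and 27 UMIs (9.35), and its ratio was 1.63 without clusters of other cell types. S100a8 and S100a9, neutrophil genes, were lower (0.177 and 0.220), with 62.3% and 64.4% of their control UMIs in 1 cell, and the 8 lymphocyte and neutrophil markers summed to 34.4 and 165.7 CPM, Cd3e and Ms4a1 at 0 in both. Cardiomyocyte markers, 12 of 12 detected in both groups, summed to 87.2 and 104.6 CPM, the most abundant being Myl3 in iSuRe-Cre and Myl2 in control. Fibroblast markers summed to 445.2 and 442.6 CPM, led by Dcn in iSuRe-Cre and Col3a1 in control, and macrophage markers to 72.6 and 108.2 CPM, led by C1qb in both, all 8 of 8 detected in each case. Markers of the endocardium summed to 539.5 and 351.8 CPM and of arterial ECs to 441.9 and 973.3 CPM. Fewer cells of a kind and less RNA of its marker genes per cell cannot be told apart in these sums, and within-cluster values are given above where both groups had at least 25 cells.

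**Figure D4:**
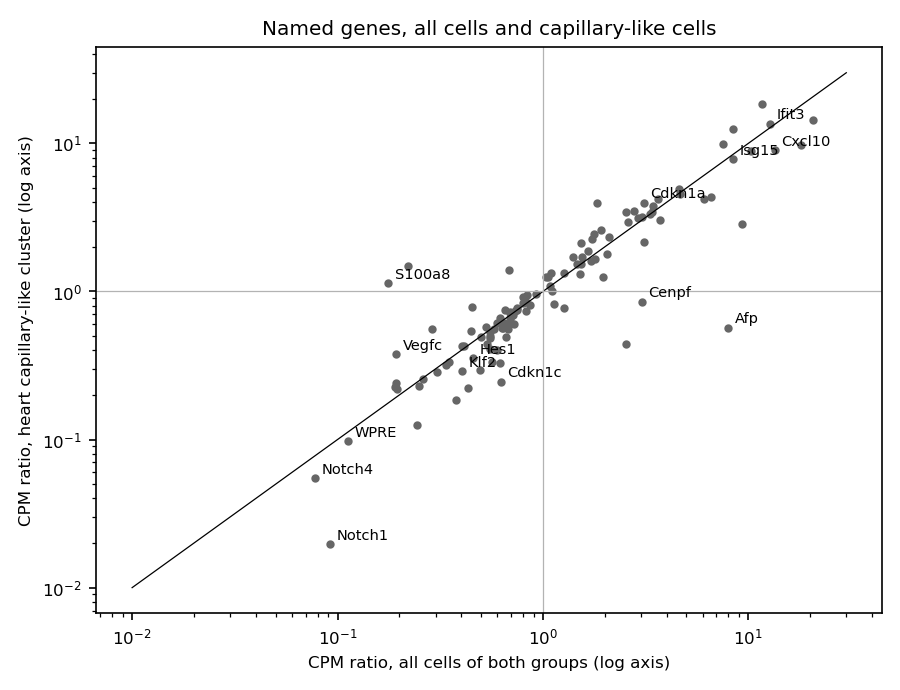
CPM ratio over all cells of both groups (x axis, log scale) against the ratio within the heart capillary-like cluster (y axis, log scale; 152 iSuRe-Cre and 151 control cells), each point a named gene with at least 50 UMIs in the cluster; the diagonal marks equal ratios. Notch1 lies below the diagonal (0.0919 and 0.0197), Isg15, Cxcl10 and Ifit3 lie near it, and Afp, Cenpf and S100a8 lie on the other side of 1 in the cluster.

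The iSuRe-HadCre heart group and the liver groups give context for these levels. The iSuRe-HadCre heart ECs (311 cells) were set against the same control cells, so the values are only placed side by side. Notch1 was at 23.2 CPM (18.2 to 29.2) there, but Notch4 was at 52.9 CPM (45.1 to 61.6) and Hey1 at 54.8 CPM (46.9 to 63.7). Isg15 was at 268.8 CPM, Cxcl10 at 42.2 CPM and Cdkn1a at 244.0 CPM. The control level of Cxcl10, 38.9 CPM, came largely from 1 cell. Other interferon and MHC genes lay between the control and iSuRe-Cre levels. Cxcl9 was at 97.3 CPM (19.5 in control heart) and Ifit2 at 101.2 CPM (29.7). Iigp1 was at 388.3 CPM (82.8) and H2-K1 at 369.6 CPM (144.2). The share of cells above the control 95th percentile of interferon-stimulated genes was 15.8%. Kdr was at 831.5 CPM. For Notch4 and Hey1 the intervals of iSuRe-HadCre and control heart overlapped and that of iSuRe-Cre lay below both, and for Isg15 and Cdkn1a that of iSuRe-Cre lay above both.

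The iSuRe-Cre liver ECs (858 cells, against 54 of control liver) came from the same labelled genotype. Notch1 was at 21.4 and 160.2 CPM, Notch4 at 4.82 and 35.2 CPM and Hey1 at 4.71 and 41.7 CPM. Cxcl10 was at 304.9 and 9.62 CPM and Isg15 at 392.2 and 136.2 CPM, so the direction was that seen in heart. Kdr was at 771.2 and 230.8 CPM. Cdkn1a was at 227.8 CPM (218.2 to 237.7) and 176.3 CPM (144.9 to 212.5), a ratio of 1.29. Heart and liver cells may have come from the same pups, so the 2 organs are not independent samples of the genotype.

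**Figure D5:**
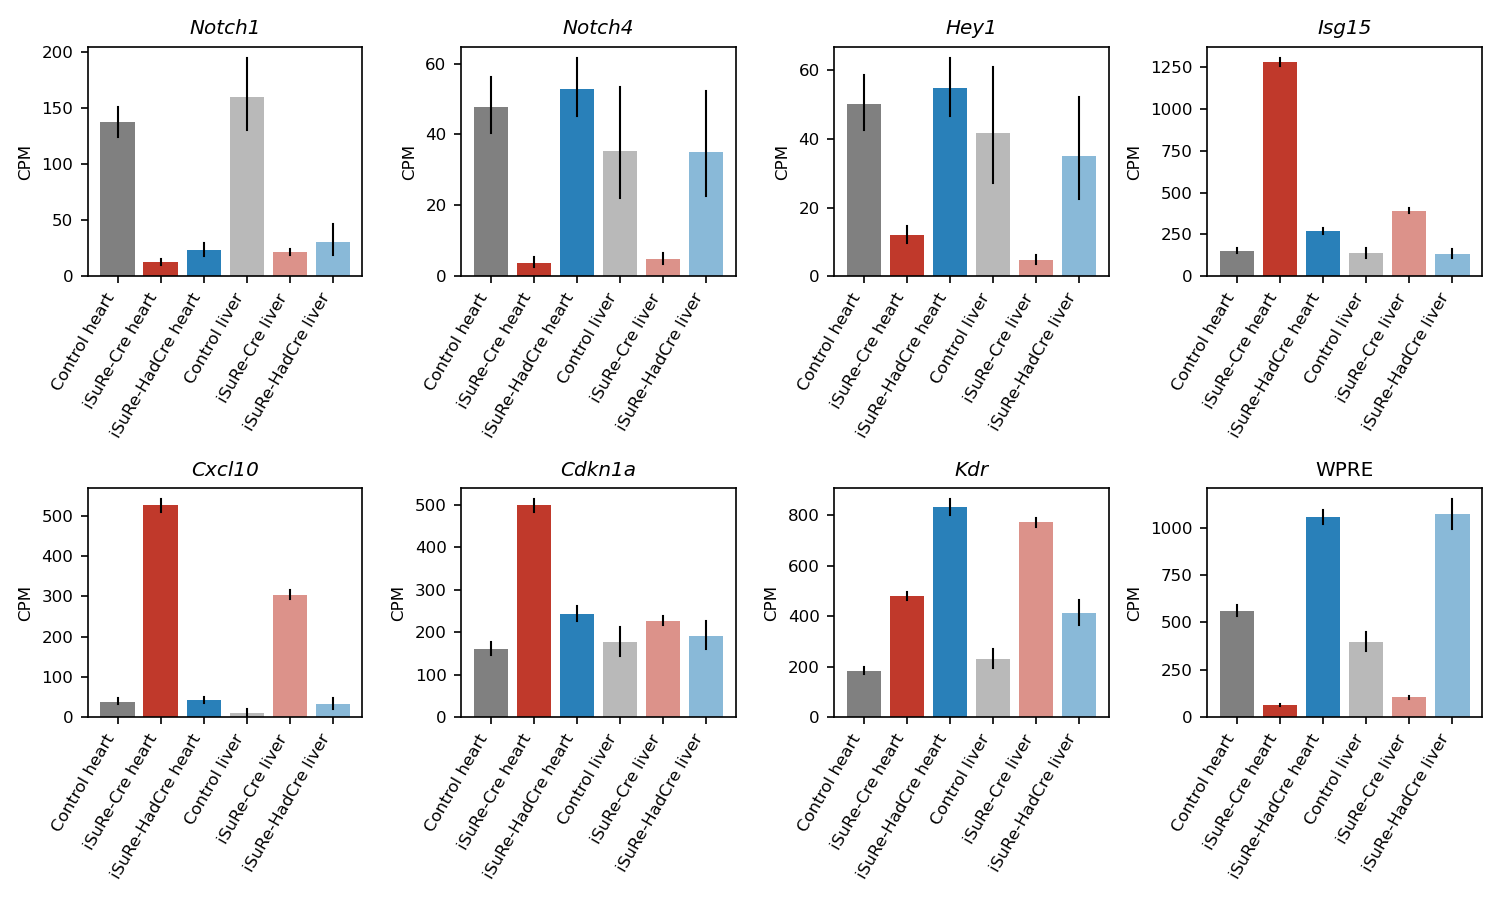
Level of 8 features (y axis, CPM) in the 6 hashtag groups, as bars from 0 with exact 95% Poisson intervals; each group is 1 hashtagged sample. Notch4 and Hey1 are low only in the iSuRe-Cre bars of both organs, Isg15 and Cdkn1a are highest in iSuRe-Cre heart, and WPRE is lower in both iSuRe-Cre bars than in the control bars.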

How the data were processed

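Reads were aligned and counted by the authors with Cell Ranger 7.1.0 against GRCm38 and the Ensembl gene build with transgene sequences added. The deposited matrix holds unfiltered UMI counts of 21951 features in 2755147 barcodes, not normalized, with hashtag counts. The matrix also lists 2 hashtags and 5 multiplexing oligos that the labels tie to no sample, which were left out.

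Barcodes were selected and grouped as stated above. Doublets were removed only where a barcode passed the minimum of several hashtags (131 barcodes). For each group, the UMIs of a gene over its cells were added up and scaled to CPM by the total of all genes. Intervals are exact: Poisson for levels, conditional binomial for ratios, Clopper-Pearson for shares. With 1 sample per group no test was made, and calls use a fold of 2 among genes with at least 200 UMIs. Floors are 3 UMIs. Thinned shares of cells with a UMI are expected values over draws of 2000 UMIs, and thinned list shares come from 1 draw. Hepatocyte-rich barcodes had over 5% hepatocyte marker UMIs and Cdh5 at or below the limit. Clusters came from 2000 variable genes, 30 principal components and Leiden resolution 1 (scanpy 1.11.5), and a cluster was named from at least 3 markers among its 10 leading genes.

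Named genes were the 12 highest and 12 lowest with 10 CPM added, the 4 most different and the most abundant members of each list, and genes listed by name. Other genes named in the text (Zbp1, Ifit1, Bst2, Stat2, Irf1, Ifi27, Ifitm2, Ddx58, Parp14, Trim25, Ly6e, Psmb8, Psmb10, Tap1, Cd274, Mdm2, Eda2r, Dcxr, Tnfrsf10b, Ddit4, Thbd, Nos3, Gpihbp1, Eln, Mgp, Rbpj, Nrarp, Adam17, Psenen, Rps3a1, Tubb4b, Ifnb1, Ifng, Ifna4, Gja5, Hes5, Ifnar1, Ifnar2, Ifngr1 and Pde4d) were chosen after their values were seen. A result for 1 item is not reported here. The members and gene lists were chosen with earlier results of these data known. The counting and interval code was tested on simulated data. Alternatives covered the hashtag, Cdh5 and WPRE criteria, quality limits, makeup, weighting, normalization, free RNA, pseudocount and count minimum. Python 3.11.15, scipy 1.17.1, R 4.3.3 and Seurat 5.3.0 were used.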

Additional observations from a re-analysis of the deposited data

Results flagged for a closer look

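In 11 named genes the ratio of iSuRe-Cre to control lay on opposite sides of 1 in heart and liver, with intervals that did not reach 1 in either organ; the difference itself was not tested. Of these, 3 were called in heart, being past 2-fold with at least 200 UMIs. S100a8 had a ratio of 0.177 in heart and 5.51 in liver, and S100a9 of 0.220 and 4.18. Ccl5 had a ratio of 2.54 in heart and 0.206 in liver. In heart, 62.3% of the control UMIs of S100a8 and 53.3% of the iSuRe-Cre UMIs of Ccl5 came from 1 cell.

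The others were not called in heart. Flt1 was at 0.651 in heart and 1.24 in liver, Zfp36, which speeds mRNA decay, at 0.551 and 1.59, and Id3, a BMP target, at 0.724 and 1.13. C1qb, a macrophage gene, was at 0.706 and 10.8, with 92.6% of its control heart UMIs in 1 cell, and the globin gene Hbb-bs at 0.801 and 1.61. Emcn, endomucin, was at 1.10 and 0.817, Plvap, of the endothelial diaphragm, at 1.84 and 0.810, and Sox9, a cartilage factor with fewer than 200 UMIs in heart, at 4.51 and 0.637.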

How the results depend on the processing

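With 1 sample per group nothing could be left out as a replicate. No paired analysis was possible because each group was 1 hashtagged sample. In the main comparison 232 genes were higher and 112 lower of 7164 tested. The counts were 101 and 69 of 4954 when the WPRE criterion was set on iSuRe-Cre heart only, and 91 and 70 of 4801 when on both groups. They were 488 and 257 of 10641 with a minimum of 50 UMIs, and 137 and 58 of 4078 with 500. In the largest cluster of control heart alone 76 were higher, 178 were lower when each cell weighed the same, and 61 were lower with 10 CPM added. HTODemux gave 177 higher and 150 lower, of which 140 and 52 were shared with the main comparison. The Notch1 ratio was past 2-fold in 18 of 18 settings. It was 0.131 with HTODemux, 0.134 and 0.135 with the WPRE criterion in 1 or both groups, 0.0447 below 6000 genes, 0.0197 in the cluster, 0.0549 in barcodes of 6000 to 20000 UMIs, 0.0587 by cell and 0.153 with 10 CPM added. In the same order the WPRE ratio was 0.162, 0.296, 0.272, 0.0956, 0.0971, 0.0978, 0.0961 and 0.128, and 0.127 with a hashtag minimum of 10.

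Of 1110 pairs of a setting and a named gene called in the main comparison (past 2-fold with at least 200 UMIs), 26 lay on the other side of 1, as did 35 of 1295 pairs with the other named genes. Afp was at 0.548 with a hashtag minimum of 50, 0.280 with HTODemux, 0.523 and 0.498 with the WPRE criterion in 1 or both groups, and 0.884 below 6000 genes. It was at 0.571 in the cluster, 0.577 without hepatocyte-rich barcodes, 0.736 without other cell types and 0.797 in barcodes of 6000 to 20000 UMIs, where Krt10 was at 0.879. S100a8 and S100a9 were at 1.56 and 1.44 with HTODemux and 1.14 and 1.48 in the cluster. Ccl21a was at 0.549 and 0.503 with the WPRE criterion and 0.378 without other cell types. Ccl5 was at 0.137 and 0.126 with that criterion, 0.444 in the cluster and 0.324 without the interferon and cell cycle clusters. Cdkn2c was at 0.924 with the criterion in both groups and 0.669 in the cluster, where Cdkn3 was at 0.911, Cenpf at 0.855 and Cenpe at 0.992. Without turning, calls were lost in some of 18 settings. Efnb2 was past 2-fold in 6, Igf1 in 8 and Dll4 in 13. Jag1, Hes1, Gja4, Klf4 and Pparg were past it in 15, and Klf2, Stmn2 and Ccnb2 in 16. Kdr, Ccnd1, Unc5b, Gdf15, Odc1, H2-Q7, Rgs5, Ddx3y and Eif2s3y were past it in 17. The cause was not tested. The exclusions by hepatocyte RNA, cell type, depth, interferon and cell cycle clusters, and Y-linked UMIs were chosen after seeing the data.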

Other observations

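Receptors for interferon were not among the higher genes. Ifnar1 was at 52.6 CPM in iSuRe-Cre heart and 67.3 CPM in control heart (ratio 0.782, 0.661 to 0.928), Ifnar2 at 70.8 and 70.3 CPM (1.01, 0.860 to 1.18), and Ifngr1 at 91.8 and 135.0 CPM (0.680, 0.602 to 0.768). Gja5, the connexin 40 gene of arterial ECs, had 23 and 62 UMIs, a ratio of 0.135 (0.0800 to 0.222), and was below the count needed for a call. The Notch target Hes5 had 15 and 2 UMIs.

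Pde4d, a phosphodiesterase that degrades cAMP, was at 2164 and 395.7 CPM, a ratio of 5.47 (5.16 to 5.80). In the capillary-like cluster 3539 genes had at least 200 UMIs, of which 76 were higher and 100 lower.

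A UMI count of at least 25 of HTO308, a hashtag with no group in the labels, was found in 14 iSuRe-Cre and 11 control heart cells. The 60 features named as barcodes in the count matrix summed to 377 and 398 UMIs, or 45.4 and 131.4 CPM, and to 130.5 CPM in iSuRe-HadCre heart.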
